A study of Homo sapiens with 40 samples.

Results

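SERPINB9, NT5E and SRPX are 3 of the 19962 genes counted in 40 poly(A) RNA sequencing libraries of RKO, an established cell line from a human colorectal carcinoma. They were chosen by their RNA levels in the siRNA libraries, which lay lower after an siRNA pool against IGF2BP2 than after a pool against IGF2BP3, and all 3 were among the 11428 genes with enough counts to be tested. IGF2BP2 and IGF2BP3 are related RNA-binding proteins. The question followed here is whether knockout of the same targets gave the same difference.

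All cells carried doxycycline-inducible Cas9 and GFP, and a lentiviral vector with BFP and a pair of guide RNAs. The guides were directed against AAVS1, a non-coding control locus (sgAAVS1), against IGF2BP2 (sgIGF2BP2) or against IGF2BP3 (sgIGF2BP3). Each line was a BFP-positive population sorted after transduction, so a Dox-treated library may hold a mixture of edited and unedited cells. Each line was given DMSO, or doxycycline (Dox) at 250 ng/mL for 72 hours. Without Dox, the sgIGF2BP2 line also received a non-targeting siRNA (siControl) or the pool siIGF2BP2, and the sgIGF2BP3 line siControl or the pool siIGF2BP3, at 75 nM for 48 hours. In every group s4U, a nucleoside that labels newly made RNA in SLAMseq, was in the medium at 250 µM for 2 hours, and only total counts are described here. Each of the 10 groups has 4 libraries, from 1 well each of an experiment run in quadruplicate, so p-values may measure only the spread between wells. Each pool was used in 1 line only, so pool and line cannot be told apart.

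SERPINB9 is an intracellular serpin of clade B that inhibits granzyme B, the protease that cytotoxic lymphocytes and natural killer cells deliver into target cells, and its presence in tumour cells can protect them. NT5E encodes CD73, an ecto-5′-nucleotidase held on the cell surface by a lipid anchor, which turns extracellular AMP into adenosine, a signal that dampens immune cells. SRPX encodes an extracellular protein with sushi repeats, a fold shared with many complement regulators. IGF2BP proteins bind mRNAs in the cytoplasm and are known for stabilizing their targets.

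SERPINB9 (ENSG00000170542) lies on the reverse strand at chr6:2887266-2903280, NT5E (ENSG00000135318) on the forward strand at chr6:85449584-85495791 and SRPX (ENSG00000101955) on the reverse strand at chrX:38149336-38220924 (GRCh38, GENCODE 29). No annotated gene shares exon bases with any of the 3. A stretch before each RefSeq start is shown because the 3 genes were chosen for a shared pattern. The stretches come from RefSeq promoters (GRCh38.p14), which matched all 3 genes. RefSeq and GENCODE starts differ: those of NT5E and SRPX in RefSeq lie inside the GENCODE gene. The stretch shown for NT5E is within the GENCODE gene body, and that for SRPX lies outside it. Capitals mark the rarest of the motifs found in the 250 bases before the RefSeq start, and the 12 bases on each side are in lower case.
SERPINB9, chr6:2903322-2903351, reverse strand: ccgaccctgcggTATAAAagcggtgcctgc
NT5E, chr6:85449944-85449973, forward strand: ggtcggatcgggTGACGTcgcgaacttgcg
SRPX, chrX:38221091-38221119, reverse strand: gggggcgcgcaaATTGGggcaaagaaagc
Of the 6 motifs searched on both strands, SERPINB9 held the TATA box TATAAA with its first base 30 bases before the start, a motif present in 10.8% of 34796 promoters searched. NT5E held the core of the cAMP response element, TGACGT, 127 bases before its RefSeq start, which 7.08% of promoters hold, and SRPX held the CCAAT box on the other strand (shown as ATTGG) 236 bases before the start, which 32.0% hold. The GC box GGGCGG occurred 2 times in each of the 3 promoters and is held by 42.6% of all promoters. The AP-1 motif TGANTCA, which 6.59% of promoters hold, had no match in the 3 genes. The TEAD motif GGAATG, which 11.9% hold, had none either. These statements cover the 250 bases before each RefSeq start. For NT5E those bases lie wholly inside the GENCODE gene, and for SRPX partly. SERPINB9 held a CCAAT box too. The GC box, a frequent motif, was thus the only one of the 6 found in all 3 promoters.

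The guides against both targets are shown because they define the knockouts, with the 10 bases nearest to the PAM in capitals.
IGF2BP2 guide 1: atatgtgacgTTGACAACGG
IGF2BP2 guide 2: gtgcgctgagGTTCAACCCT
IGF2BP3 guide 1: tggcaccgacTGATAGAGCT
IGF2BP3 guide 2: gaagatacttTCTAGGTCCG
Against the annotated transcripts of SERPINB9 (1), NT5E (5) and SRPX (6), searched on both strands, the guides had at least 5 mismatches, so no near match to a transcript of the 3 genes was found. Introns were not searched, and the siRNA sequences were not analysed here.

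Total counts ranged from 1e+07 to 2.48e+07 per library (median 1.35e+07). The targets were reduced in every library treated against them, below all 4 controls: IGF2BP2 RNA was at 39.5% after Dox and 27.9% after siIGF2BP2, and IGF2BP3 RNA at 31.1% after Dox and 14.6% after siIGF2BP3. IGF2BP3 also fell to 84.3% after Dox in sgIGF2BP2 cells (a log2 change of -0.25; adjusted p = 2.93e-06, edgeR). Of 9 markers of colorectal epithelium, EPCAM, KRT8, KRT18 and CDX2 were expressed, KRT20 and CDX1 had no count in any library, and KRT19, CDH1 and VIL1 had none in most. The summed level of the 9 ran from 211 to 311 CPM (read counts scaled to a common library total), lowest on average with siIGF2BP2 (222) and highest with Dox in sgAAVS1 cells (302), and its part in the results was not tested. Markers of leukocytes, fibroblasts and endothelium summed to at most 1.1 CPM in any library. By chi-square per gene, the Dox library 2 of sgIGF2BP2 cells differed most from its replicates, at 11.8 to 16.6. The siIGF2BP2 library 3 came next (5.64 to 6.42), and the median over all 60 replicate pairs was 2.27. By correlation with the mean of its replicates, siIGF2BP2 library 3 was the lowest (r = 0.9951, against 0.9963 for that Dox library).

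SERPINB9 and NT5E were low-abundance RNAs and SRPX was a mid-range one. Mean CPM over the 40 libraries was 5.95 for SERPINB9, 7.36 for NT5E and 28.4 for SRPX, at the percentiles 16.8, 19.1 and 46.6 of the tested genes. SERPINB9 had 34 to 136 reads per library, NT5E 36 to 186 and SRPX 154 to 659. Per kilobase of exon, the mean level of SRPX was 14.3 CPM, against 1.62 for NT5E and 1.45 for SERPINB9. In bulk RNA, fewer cells with a transcript and less of it per cell cannot be told apart.

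The values that chose the genes are described first, without a test. With siIGF2BP2, SERPINB9 measured 3.55, 4.54, 2.53 and 3.37 CPM in the 4 libraries, against 5.46, 7.28, 6.62 and 5.88 with siControl in the same line. NT5E measured 3.12, 5.24, 3.94 and 4.99 CPM with siIGF2BP2, and 8.06, 6.29, 8.69 and 6.86 with siControl. SRPX measured 13.3, 13.9, 15.5 and 12.1 CPM with siIGF2BP2, and 30.9, 34.2, 30.0 and 31.7 with siControl. For each gene every siIGF2BP2 library lay below every siControl library. Of all tested genes, 15.6% were lower without overlap in this comparison and 36.8% were called at an adjusted p under 0.05. The ratio of siIGF2BP2 to siControl was 0.555 for SERPINB9, 0.583 for NT5E and 0.431 for SRPX, or log2 fold changes of -0.85 (SE 0.156), -0.78 (SE 0.131) and -1.22 (SE 0.077).

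The pool against IGF2BP3 divided the 3 genes. SERPINB9 measured 7.95, 7.34, 7.06 and 6.53 CPM with siIGF2BP3, and 5.77, 5.04, 6.16 and 6.26 with siControl in the sgIGF2BP3 line. NT5E measured 8.21, 9.22, 8.78 and 7.98 CPM with siIGF2BP3, and 6.74, 7.40, 6.33 and 6.50 with siControl. SRPX measured 28.9, 29.9, 27.7 and 28.6 CPM with siIGF2BP3, and 34.1, 31.4, 31.7 and 32.0 with siControl. SERPINB9 and NT5E were higher in every siIGF2BP3 library, and SRPX was lower in every one. Among all tested genes, 4.56% were higher and 5.4% lower without overlap, and 2.34% were called. The ratio to siControl was 1.26 for SERPINB9 and for NT5E, and 0.895 for SRPX.

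The siIGF2BP3 effect minus the siIGF2BP2 effect, which the choice used, was 1.18 on the log2 scale for SERPINB9 (95% confidence interval 0.76 to 1.60), 1.11 for NT5E (0.76 to 1.47) and 1.06 for SRPX (0.85 to 1.26). The intervals make no allowance for the choice of the genes by this difference, so the estimates may be too large. In SERPINB9 and NT5E this difference joined a lower level in one pool and a higher level in the other, while in SRPX both pools gave lower levels. Of all tested genes 18.7% were called in this difference. Among those called whose mean log2 CPM reached 2, SERPINB9 ranked 9, NT5E 10 and SRPX 13 of 1116 higher ones. The next gene, RALA, had a difference of 1.03. With the added condition of no overlap with siControl in the siIGF2BP3 libraries, the 3 genes ranked 1 to 3. These ranks come from the libraries by which the genes were chosen, so they describe the choice and test nothing.

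**Figure D1:**
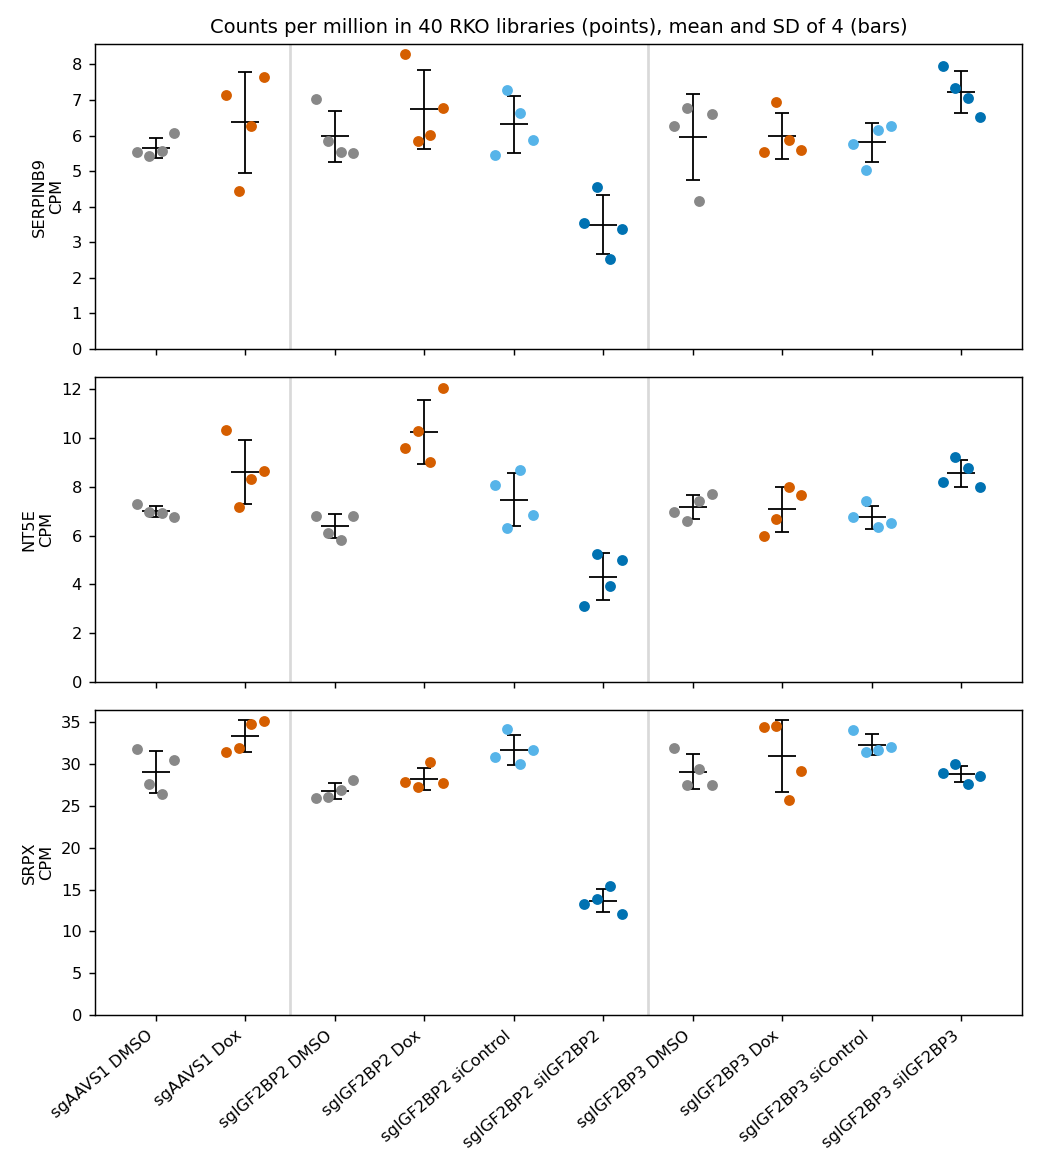
Level of SERPINB9 (top), NT5E (middle) and SRPX (bottom) in CPM in each of 40 RKO libraries, by line and treatment; points are libraries and bars show the mean and SD of 4. The siIGF2BP2 libraries are the lowest group for each gene, and the 4 NT5E libraries with Dox in sgIGF2BP2 cells (9.03 to 12.1 CPM) lie above their DMSO controls.

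NT5E moved the other way with Dox in sgIGF2BP2 cells, though its excess over the control line, given below, did not pass the test. In sgIGF2BP2 cells, NT5E measured 6.79, 6.09, 5.83 and 6.80 CPM with DMSO and 9.58, 10.3, 9.03 and 12.1 with Dox, and all 4 Dox libraries lay above all 4 DMSO libraries. Of all tested genes, 20.4% were called in this comparison, and 8.92% were higher without overlap. NT5E rose 1.63-fold (log2 fold change 0.70, SE 0.116, 95% confidence interval 0.47 to 0.93, edgeR quasi-likelihood test, adjusted p = 3.14e-06). Without the Dox library 2, the log2 fold change was 0.70 (adjusted p = 2.13e-05 by the same edgeR test). The siIGF2BP2 value of -0.78 (interval -1.04 to -0.52) lies outside the interval of the knockout, and the signs are opposite. The siRNA values set beside the knockouts here and below helped to choose the genes, so they may be too large in size. The treatments also differed in time (48 hours with siRNA, 72 with Dox) and in IGF2BP2 RNA left (27.9% and 39.5%).

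In cells with the control guides the NT5E estimate for Dox was positive as well. NT5E measured 7.28, 6.97, 6.94 and 6.77 CPM with DMSO and 10.3, 7.16, 8.31 and 8.64 with Dox in sgAAVS1 cells, where 1 Dox library lay within the DMSO range. The log2 fold change was 0.31 (95% confidence interval 0.08 to 0.55) and did not pass the test (edgeR adjusted p = 0.0594), in a comparison where 15.9% of genes were called. It passed without that Dox library 2 (0.39, edgeR adjusted p = 0.0256). In sgIGF2BP3 cells, NT5E measured 6.96, 6.60, 7.42 and 7.71 CPM with DMSO and 5.98, 6.69, 8.01 and 7.66 with Dox. These ranges overlap, and the log2 fold change was -0.0093 (95% confidence interval -0.25 to 0.23, edgeR adjusted p = 0.981), where 2.64% of genes were called.

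Set against the control line, the Dox effect on NT5E in sgIGF2BP2 cells exceeded that in sgAAVS1 cells by 0.39 on the log2 scale (95% confidence interval 0.06 to 0.72), which did not pass the test after adjustment over all genes (edgeR adjusted p = 0.145; 6.97% of genes called). The Dox effect in sgIGF2BP3 cells was 0.32 lower than in sgAAVS1 cells (difference -0.32, interval -0.66 to 0.02, edgeR adjusted p = 0.243; 7.78% called). Between the 2 knockouts the difference passed: the Dox effect in sgIGF2BP3 minus that in sgIGF2BP2 was -0.71 for NT5E (SE 0.169, interval -1.05 to -0.38, edgeR adjusted p = 0.00728), where 2.91% of genes were called. The same difference for the siRNA pools was 1.11. Relative to the matching IGF2BP3 treatment, NT5E was thus lower with siIGF2BP2 and higher with Dox in sgIGF2BP2 cells. Without the Dox library 2 of sgIGF2BP2 cells the knockout difference was -0.71 (edgeR adjusted p = 0.0107).

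SERPINB9 was not called in any knockout comparison. In sgIGF2BP2 cells it measured 7.04, 5.83, 5.54 and 5.51 CPM with DMSO and 8.28, 5.86, 6.02 and 6.79 with Dox, with overlapping ranges. The log2 fold change was 0.18 (95% confidence interval -0.09 to 0.46, edgeR adjusted p = 0.388). That interval does not include the -0.85 of siIGF2BP2 (interval -1.16 to -0.54). In sgAAVS1 cells SERPINB9 measured 5.53, 5.42, 5.57 and 6.07 CPM with DMSO and 7.15, 4.43, 6.25 and 7.65 with Dox. The log2 fold change there was also 0.18 (interval -0.10 to 0.47, edgeR adjusted p = 0.428), so the estimates in the IGF2BP2 line and in the control line differed by -0.00085 (interval -0.40 to 0.39, edgeR adjusted p = 0.999).

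In sgIGF2BP3 cells SERPINB9 measured 6.26, 6.77, 4.17 and 6.61 CPM with DMSO and 5.54, 6.93, 5.88 and 5.58 with Dox. These values overlap, and the log2 fold change was -0.0013 (interval -0.29 to 0.28, edgeR adjusted p = 0.997), where siIGF2BP3 had given 0.33. Its Dox effect in sgIGF2BP3 cells minus that in sgAAVS1 cells was -0.19 (interval -0.59 to 0.22, edgeR adjusted p = 0.627). The difference between the knockouts was -0.19 (interval -0.58 to 0.21, edgeR adjusted p = 0.739). This interval does not include the siRNA difference of 1.18 (interval 0.76 to 1.60). With 34 to 136 reads of SERPINB9 per library, smaller changes than the knockout intervals allow were not detectable.

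SRPX, the gene with the deepest drop after siIGF2BP2, stayed within its DMSO range in sgIGF2BP2 cells except for 1 library. SRPX measured 26.0, 26.1, 26.9 and 28.1 CPM with DMSO and 27.8, 27.2, 30.2 and 27.8 with Dox. The log2 fold change was 0.07 (95% confidence interval -0.07 to 0.21, edgeR adjusted p = 0.534). The bound nearest to the siIGF2BP2 value of -1.22 (interval -1.37 to -1.06) is -0.07, so a drop of that size is outside the knockout interval.

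SRPX rose slightly with Dox in the control line. In sgAAVS1 cells it measured 31.8, 27.6, 26.4 and 30.5 CPM with DMSO and 31.4, 32.0, 34.8 and 35.2 with Dox, with 1 DMSO library inside the Dox range. The log2 fold change was 0.19 (interval 0.06 to 0.33, edgeR adjusted p = 0.0428). The call was lost without DMSO library 2 (0.17, adjusted p = 0.145), DMSO library 3 (0.15, adjusted p = 0.18), Dox library 3 (0.17, adjusted p = 0.117) or Dox library 4 (0.16, adjusted p = 0.145), all by edgeR. In sgIGF2BP3 cells SRPX measured 31.9, 27.5, 29.4 and 27.5 CPM with DMSO and 34.5, 34.6, 25.7 and 29.1 with Dox. The Dox libraries lay above, within and below the DMSO range, and the log2 fold change was 0.09 (interval -0.05 to 0.23, edgeR adjusted p = 0.558).

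Set against sgAAVS1 cells, the Dox effect on SRPX differed by -0.12 in sgIGF2BP2 cells (interval -0.32 to 0.07, edgeR adjusted p = 0.506). In sgIGF2BP3 cells this difference was -0.10 (interval -0.30 to 0.09, edgeR adjusted p = 0.563). The difference between the knockouts was 0.02 (interval -0.18 to 0.22, edgeR adjusted p = 0.958), against 1.06 for the siRNA pools. The knockouts thus gave 1 called difference among the 3 genes, in NT5E, with the sign opposite to that of the pools.

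**Figure D2:**
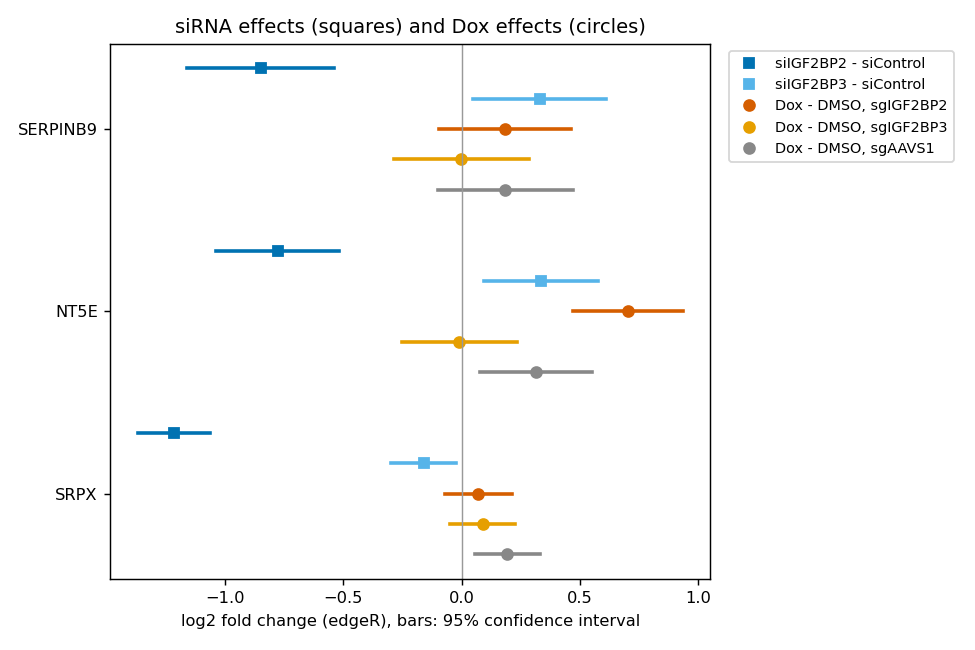
Log2 fold changes of SERPINB9, NT5E and SRPX from the edgeR fit, with 95% confidence intervals as bars; squares are siRNA pools against siControl and circles are Dox against DMSO in each line. The siIGF2BP2 squares lie left of 0 for each gene (-0.85, -0.78 and -1.22), and the Dox circle of the sgIGF2BP2 line for NT5E lies to the right, at 0.70.

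**Figure D3:**
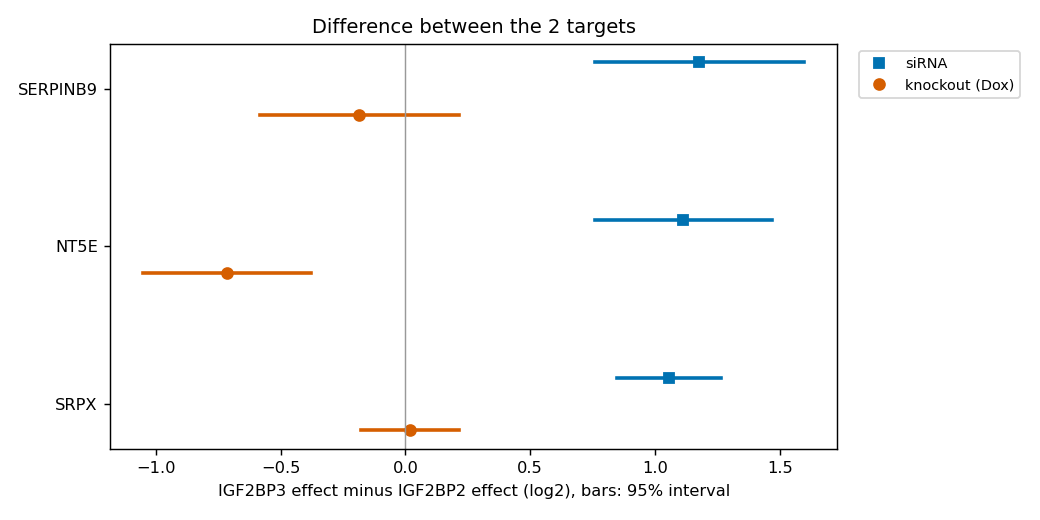
IGF2BP3 effect minus IGF2BP2 effect on the log2 scale for each gene, with 95% confidence intervals as bars; squares are the siRNA pools, by which the genes were chosen, and circles the knockouts. The squares lie between 1.06 and 1.18, the SERPINB9 and SRPX intervals of the knockouts include 0, and the NT5E circle lies at -0.71.

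The levels of the 3 genes were also compared between the uninduced lines. With DMSO, no gene of the 3 was called between any pair of lines, in comparisons that each called 0.0175% of genes. The log2 difference of the sgIGF2BP2 line from the sgAAVS1 line was 0.06 for SERPINB9, -0.14 for NT5E and -0.12 for SRPX (edgeR adjusted p = 0.959, 0.856 and 0.791). For the sgIGF2BP3 line it was 0.08, 0.03 and -0.0014 (edgeR adjusted p = 0.863, 0.943 and 0.999). Between the sgIGF2BP3 and sgIGF2BP2 lines it was 0.02, 0.18 and 0.12 (edgeR adjusted p = 0.996, 0.897 and 0.871). Between siControl and DMSO, which shares libraries with the choice and is not tested, SRPX was higher in all 4 siControl libraries of the sgIGF2BP2 line (log2 difference 0.24), where 10.7% of genes were higher without overlap. The other siControl minus DMSO differences were 0.09 for SERPINB9 and 0.25 for NT5E in that line, and -0.06, -0.08 and 0.15 for SERPINB9, NT5E and SRPX in the sgIGF2BP3 line, all with overlapping libraries.

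Ordered by group mean (± SD, n = 4), SERPINB9 ran from 7.22 ± 0.590 CPM with siIGF2BP3 through 6.74 ± 1.11 with Dox in sgIGF2BP2 and 6.37 ± 1.42 with Dox in sgAAVS1 cells. It continued with 6.31 ± 0.806 with siControl in sgIGF2BP2, 5.98 ± 0.649 with Dox in sgIGF2BP3, 5.98 ± 0.717 with DMSO in sgIGF2BP2 and 5.96 ± 1.21 with DMSO in sgIGF2BP3 cells. The lowest groups were siControl in sgIGF2BP3 (5.81 ± 0.556), DMSO in sgAAVS1 (5.65 ± 0.287) and siIGF2BP2 (3.50 ± 0.827). Only the last step, into siIGF2BP2, was free of overlap between neighbouring groups, and its gap was 2.15 CPM, or 2.60 times the larger SD of the pair.

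NT5E had its highest mean with Dox in sgIGF2BP2 cells (10.2 ± 1.31 CPM), followed by Dox in sgAAVS1 (8.61 ± 1.31) and siIGF2BP3 (8.55 ± 0.560). The middle of the order was siControl in sgIGF2BP2 (7.48 ± 1.10), DMSO in sgIGF2BP3 (7.17 ± 0.495), Dox in sgIGF2BP3 (7.09 ± 0.924) and DMSO in sgAAVS1 (6.99 ± 0.209). It ended with siControl in sgIGF2BP3 (6.75 ± 0.470), DMSO in sgIGF2BP2 (6.38 ± 0.495) and siIGF2BP2 (4.32 ± 0.979). The sgIGF2BP2 line thus held the 2 lowest and the highest of the 10 NT5E means. Here too the last step alone, of 2.06 CPM or 2.10 times the larger SD, was free of overlap.

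SRPX was highest with Dox in sgAAVS1 cells (33.3 ± 1.89 CPM), followed by siControl in sgIGF2BP3 (32.3 ± 1.22) and in sgIGF2BP2 (31.7 ± 1.82) and by Dox in sgIGF2BP3 (31.0 ± 4.32). DMSO in sgAAVS1 (29.1 ± 2.51), DMSO in sgIGF2BP3 (29.1 ± 2.11), siIGF2BP3 (28.8 ± 0.944), Dox in sgIGF2BP2 (28.3 ± 1.32) and DMSO in sgIGF2BP2 (26.8 ± 0.966) came next. SRPX with siIGF2BP2 was at 13.7 ± 1.40 CPM, 13.1 CPM below the next group, or 9.34 times the larger SD. Apart from that step, neighbouring groups in the order overlapped for all 3 genes.

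Across the 6 DMSO and Dox groups, which the choice did not use, Pearson's r of the mean log2 CPM was 0.883 between SERPINB9 and NT5E, 0.1 between SERPINB9 and SRPX and 0.277 between NT5E and SRPX. The 6 points share lines and the Dox treatment, and these values are a description.

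The genes whose 10 group means followed each of the 3 most closely were taken from the 9957 genes whose mean log2 CPM reached 2. Nearest to SERPINB9 were GPD1L, a relative of glycerol-3-phosphate dehydrogenase (r = 0.97), MAPK14, the kinase p38 alpha (r = 0.962), and TASOR2 (r = 0.96). Nearest to NT5E were KBTBD8, a substrate adaptor of a cullin ubiquitin ligase (r = 0.993), CDIPT, which makes phosphatidylinositol (r = 0.959), and ASAP2, which acts on Arf GTPases (r = 0.954). Nearest to SRPX were LIMCH1, an actin and myosin regulator (r = 0.982), NOA1, a mitochondrial GTPase (r = 0.98), and P4HA2, a subunit of collagen prolyl hydroxylase (r = 0.978). Over the 6 DMSO and Dox groups alone, r was 0.76, 0.693 and 0.871 for the genes nearest to SERPINB9, and 0.987, 0.9 and 0.939 for those nearest to NT5E. It was 0.837, 0.781 and 0.477 for those nearest to SRPX. With the 40 libraries in place of the group means, the genes nearest to NT5E were CDKN1A, an inhibitor of cyclin-dependent kinases (r = 0.811), the adhesion receptor CD44 (r = 0.801) and ASAP2 (r = 0.799). These genes were picked for their likeness, so their values are a description.

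The lists that follow hold genes related to the 3 by family or pathway. Over all tested genes, 7.25% rose and 8.68% fell with Dox in sgAAVS1 cells, 10% rose and 10.4% fell in sgIGF2BP2 cells, and 1.64% rose and 1.01% fell in sgIGF2BP3 cells. The difference in Dox effect from sgAAVS1 cells called 6.97% of genes for sgIGF2BP2 and 7.78% for sgIGF2BP3 cells. Between the knockouts 2.91% were called. Of 12 other clade B serpins, 3 were tested. SERPINB1, an inhibitor of neutrophil proteases (log2 fold change 0.28, edgeR adjusted p = 0.001014), and SERPINB8 (0.14, edgeR adjusted p = 0.03457) rose with Dox in sgAAVS1 cells, and none of the 3 was called with Dox in the other lines or between lines. Of 15 genes of granule cytotoxicity and its caspase targets, 7 were tested. IGF2R, which can take up granzyme B, was the only one called in a Dox comparison, with a rise of 0.10 in sgIGF2BP2 cells. The list's median log2 fold change with Dox was 0.05 in sgAAVS1, 0.04 in sgIGF2BP2 and 0.07 in sgIGF2BP3 cells, beside medians over all genes of 0.0044, 0.0077 and 0.0027.

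The adenosine pathway around NT5E had members called in both directions. Of 28 other genes that release, convert, carry or sense extracellular nucleotides and adenosine, 17 were tested. With Dox in sgIGF2BP2 cells 4 rose and 2 fell: the nucleoside transporters SLC29A3 (0.44) and SLC29A4 (0.32), adenosine deaminase ADA (0.21) and the ectonucleotidase ENTPD2 (0.15) rose, while ENTPD5 (-0.27) and the transporter SLC29A1 (-0.14) fell. In sgAAVS1 cells P2RX4, an ATP-gated channel, rose (0.31), and SLC29A1 (-0.25), ENTPD6 (-0.12) and purine nucleoside phosphorylase PNP (-0.09) fell. In sgIGF2BP3 cells 1 gene was called, ENTPD2 (0.16). The Dox effect in sgIGF2BP2 cells exceeded that in sgAAVS1 cells for SLC29A3 (0.54), ADA (0.30) and ENTPD2 (0.25). In sgIGF2BP3 cells it exceeded that in sgAAVS1 cells for ENTPD2 (0.27) and SLC29A1 (0.21), and none of the 17 differed between the knockouts by the test.

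Among 8 tested of 10 intracellular 5′-nucleotidases, NT5DC2 fell with Dox in sgAAVS1 (-0.26) and sgIGF2BP2 cells (-0.16) and was called between the knockouts (0.19). NT5C3A rose (0.29) and NT5C fell (-0.30) with Dox in sgAAVS1 cells. The Dox effect on NT5C3A was lower than in sgAAVS1 cells in both sgIGF2BP2 (-0.33) and sgIGF2BP3 cells (-0.35), and that on NT5C (0.31) and NT5DC2 (0.29) was higher in sgIGF2BP3 cells. None of the 8 was called higher with Dox in sgIGF2BP2 cells, where NT5E was and where 10% of all tested genes were.

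Of 34 other genes with sushi repeats, 9 were tested, and those called with Dox all rose. SEZ6L2 rose with Dox in sgAAVS1 (0.24), sgIGF2BP2 (0.40) and sgIGF2BP3 cells (0.29). SRPX2, a paralog of SRPX, rose in sgAAVS1 cells (0.81, edgeR adjusted p = 0.009876, at a mean of 2.03 CPM), as did CD55 (0.30), which limits complement on the cell surface, and SUSD4 (1.34, at a mean of 0.461 CPM). SUSD6 (0.24) and SUSD1 (0.17) rose in sgIGF2BP2 cells. Relative to sgAAVS1 cells, the Dox effect on CD55 was lower in sgIGF2BP2 cells (-0.33), and that on the complement regulator CD46 was lower in sgIGF2BP2 (-0.22) and sgIGF2BP3 cells (-0.21). None of the 9 was called between the knockouts.

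Of 22 other genes that bear on immune attack of tumour cells, whether by evasion or by recognition, 17 were tested. With Dox, 6 rose and 1 fell in sgAAVS1 cells, 6 rose in sgIGF2BP2 cells and 1, PVR (0.14), rose in sgIGF2BP3 cells. In sgIGF2BP2 cells the largest rises were those of HLA-E, a ligand of inhibitory receptors on natural killer cells (0.34), the NKG2D ligand ULBP2 (0.30), LGALS3 (0.27) and NECTIN2 (0.19). HLA-E was the only one of the 17 whose Dox effect in sgIGF2BP2 cells differed from that in sgAAVS1 cells by the test (0.28). That difference called 6.97% of all tested genes. In sgIGF2BP3 cells PVR (0.17) and TGFB1 (0.18) differed from sgAAVS1 cells, where 7.78% of all tested genes were called.

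Genes near the 3 on the chromosome were taken within 1 Mb. With Dox, 15.9% of all tested genes were called in sgAAVS1, 20.4% in sgIGF2BP2 and 2.64% in sgIGF2BP3 cells. Neither tested neighbour of NT5E, SNX14 or SYNCRIP, was called as higher with Dox in sgIGF2BP2 cells. SYNCRIP, an RNA-binding protein, fell there (-0.11, edgeR adjusted p = 0.0369) and in sgIGF2BP3 cells (-0.15, edgeR adjusted p = 0.0214). Of 11 tested neighbours of SERPINB9, GMDS fell (-0.24) and SERPINB1 and TUBB2B (0.40) rose with Dox in sgAAVS1 cells, NQO2 fell (-0.17) and BPHL (0.22) and TUBB2A (0.18) rose in sgIGF2BP2 cells, and none was called in sgIGF2BP3 cells. Of 7 tested neighbours of SRPX, PRRG1 rose with Dox in sgAAVS1 cells (0.45, edgeR adjusted p = 0.00221) and MID1IP1 in sgIGF2BP2 cells (0.18). The Dox effect on PRRG1 was lower in sgIGF2BP3 than in sgAAVS1 cells (-0.73, edgeR adjusted p = 0.001282). With siIGF2BP2, where 36.8% of all genes were called, 2 neighbours of SERPINB9 were called higher and 4 lower, SNX14 near NT5E was called higher, and 2 neighbours of SRPX were called higher and 2 lower. The last include DYNLT3, a dynein light chain, which was lower with siIGF2BP2 (-1.14, SE 0.08187), where SRPX had -1.22. Its effect with siIGF2BP3 minus siIGF2BP2 was 1.01, where SRPX had 1.06. DYNLT3 was named after these siRNA values were seen, so they are a description and no test is given for them. It was not called in any Dox comparison.

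The transcripts differed in length, base composition and in the short motif GGAC, part of the sequence reported for IGF2BP binding to methylated RNA. The SERPINB9 transcript has 4118 bases, 43.2% GC and 10 copies of GGAC, or 2.43 per kilobase. The NT5E transcript has 3548 bases, 42.4% GC and 14 copies, or 3.95 per kilobase, and the SRPX transcript 1874 bases, 50.4% GC and 3 copies, or 1.6 per kilobase. The median over 11423 tested genes was 3171 bases, 49.2% GC and 3.76 copies per kilobase. SRPX, with the largest difference after siIGF2BP2, had the lowest density of the 3, at percentile 7.16 of tested genes. A motif count is a description of the letters, not of binding.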

How the data were processed

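Per the labels' protocols, libraries were directional and made from poly(A) RNA after alkylation of s4U. The submitters' processing notes name bcl2fastq 2.20.0.422, STAR 2.7.5c and hg38; the counting tool, annotation and use of strand are not given in the sources used here. The authors deposited unnormalized counts per gene, with 40 columns that each name 1 library. Conversions of s4U were not analysed here.

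The filter filterByExpr of edgeR, by group, left 11428 genes. Tests were edgeR 4.0.16 quasi-likelihood tests (R 4.3.3) with TMM scaling, 1 coefficient per group over all 40 libraries, and p-values adjusted by Benjamini-Hochberg over the whole table. A call means an adjusted p under 0.05. The standard error is the log2 fold change divided by the square root of F. CPM used TMM-scaled library sizes. Non-overlap means that all 4 libraries of one group lie beyond all 4 of the other.

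The 3 genes and all lists were chosen with earlier results of these data known. Named genes were the 3 genes and both targets, the 3 genes most like each, up to 4 called genes per list and contrast, and neighbours within 1 Mb that were called with Dox. The script was tested on simulated data. Alternatives were upper-quartile scaling, DESeq2 size factors within edgeR, no filter on low counts, a replicate block, separate fits, thinning to the smallest total, limma-voom (limma 3.58.1), DESeq2 1.42.0 and leaving out each library. Reads shared with pseudogenes or paralogs may have been split or dropped in the deposited counts.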

Additional observations from a re-analysis of the deposited data

Results flagged for a closer look

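The Dox effect on NT5E differed between the lines by a test of the difference itself: in sgIGF2BP3 cells it was lower than in sgIGF2BP2 cells by a log2 difference of -0.713 (SE 0.169, edgeR adjusted p = 0.00728). All 4 Dox libraries of sgIGF2BP2 cells lay above all 4 DMSO libraries, while those of sgIGF2BP3 cells overlapped. None of the 30 sets of 4 libraries checked (3 genes in 10 groups) held a library that stood apart by Dixon's criterion at the 95% level on CPM. On log2 CPM, a scale added after seeing the data, 1 did: SERPINB9 in DMSO library 3 of sgIGF2BP3 cells (4.17 CPM, a gap of 0.838 of the group's range, against 0.805 on CPM). Chance alone passes this criterion in about 1 in 20 groups. Without that library the Dox effect on SERPINB9 in sgIGF2BP3 cells was -0.13, and it was not called.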

How the results depend on the processing

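Of 816 alternative values of the 3 genes, 764 were counted as unchanged. In the tested comparisons this means the same direction and side of the threshold. In the siRNA and siControl comparisons, which have no test, it means a shift smaller than the SD within groups. There a value near 0 could change sign: SERPINB9 in siControl minus DMSO of sgIGF2BP2 cells was 0.0866 and reached -0.0303. NT5E was called with Dox in sgIGF2BP2 cells (0.619 to 0.748) and between the knockouts (-0.771 to -0.629) without any 1 library and in the 8 other alternatives. Between the knockouts the highest adjusted p was 0.0293 without 1 library (edgeR). Among the 8 others (edgeR, limma-voom or DESeq2) it was 0.0474, near the threshold. Replicate numbers did not pair the samples (correlations of -0.151 to 0.24). With the replicate block, SERPINB9 with Dox in sgIGF2BP3 cells was 0.00225, and 6 genes were called between sgIGF2BP3 and sgAAVS1 with DMSO. With upper-quartile scaling, NT5E passed with Dox in sgAAVS1 cells (0.327, edgeR adjusted p = 0.0492), SERPINB9 in sgIGF2BP2 minus sgAAVS1 was 0.00415, and for DMSO in sgIGF2BP3 minus sgAAVS1 SRPX was 0.00375 with 4 genes called. Without a filter, that DMSO comparison gave 0.00208 for SRPX and 35 genes, and sgIGF2BP2 minus sgAAVS1 gave 4. Separate fits gave 477 genes with Dox in sgIGF2BP3, and 0.00385 for SRPX and 4 genes in the DMSO comparison, where DESeq2 also called 4. Thinning gave, with Dox in sgIGF2BP3, 0.00983 for SERPINB9, 0.0733 for NT5E and 183 genes. With DMSO it gave -0.0369 for NT5E and 0.00628 for SRPX in sgIGF2BP3 minus sgAAVS1, and -0.0678 for SERPINB9 and 0 genes in sgIGF2BP3 minus sgIGF2BP2. With limma-voom, SERPINB9 was 0.0153 with Dox in sgIGF2BP3 and 0.0188 in sgIGF2BP2 minus sgAAVS1. Over 40 libraries, 1 of the 3 genes most like NT5E was shared. The cause of these changes was not tested.

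Leaving out 1 library at a time, SRPX with Dox in sgAAVS1 was 0.15 to 0.234 and NT5E 0.206 to 0.393. With Dox in sgIGF2BP3, SERPINB9 was -0.13 to 0.069, NT5E -0.0678 to 0.0585, and 108 to 285 genes were called. SERPINB9 in sgIGF2BP2 minus sgAAVS1 was -0.137 to 0.098, and SRPX between the knockouts -0.0392 to 0.096. The Dox differences from sgAAVS1 called 534 to 1161 genes in sgIGF2BP2 and 428 to 1415 in sgIGF2BP3. With DMSO, sgIGF2BP2 minus sgAAVS1 gave -0.0149 to 0.108 for SERPINB9 and 1 to 2 genes; sgIGF2BP3 minus sgAAVS1 gave -0.00199 to 0.0745 for NT5E, -0.0517 to 0.041 for SRPX and 1 to 74 genes; and sgIGF2BP3 minus sgIGF2BP2 gave -0.0501 to 0.149 for SERPINB9 and 0 to 2 genes. The low counts of SERPINB9 and NT5E limit the precision of their values.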
